A study of Drosophila melanogaster with 2 samples.

Results

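Of 1664 reproducible peaks of the tagged abrupt protein (ab) in Drosophila embryos, 254 had a summit more than 5000 bp from every annotated start of a protein-coding transcript, a share of 15.3% (95% Wilson interval 13.6 to 17.1%). The transcription start sites (TSSs) came from the Ensembl annotation of the dm6 build, and the distance was taken from the summit that the authors gave for each peak. Below, these 254 peaks are called distal, the 527 peaks at over 500 and up to 5000 bp proximal, and the 883 at up to 500 bp promoter peaks. Within the reproducible list the choice rests on position alone. That list itself consists of the strongest 1664 regions of the pooled list, so weaker distal regions were left out. Binding was measured by ChIP-seq, that is, sequencing of the DNA recovered by chromatin immunoprecipitation, with an antibody against green fluorescent protein (GFP) per the sample descriptions (the antibody label itself reads ab), in embryos of a transgenic line that stably carries ab with GFP at its C-terminus. The 1 group held 2 biological replicates of whole embryos of both sexes, aged 0 to 24 hours, and a control entered the authors' peak calling. Since all cell types and stages were mixed, strong binding in few cells and weak binding in many cannot be told apart. The files list regions with a signal value on a scale they do not state and hold no read counts, so the depth was unknown. With 1 group there is no contrast between conditions, and no p-values are given. Intervals on shares and medians cover counting error over peaks only, which are not replicates.

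The protein ab belongs to the transcription factors that join a BTB domain, through which such proteins pair with one another, to zinc fingers that contact DNA. It is known for its part in the contacts of motor axons with muscles and in the shaping of sensory dendrites. Peaks far from a TSS lie in introns, between genes or at non-coding RNA genes, where enhancers of Drosophila development are often found. A peak marks where tagged protein was recovered with DNA, directly or through other proteins, and does not show which gene, if any, it acts on.

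The sequences of 6 of the 8 strongest distal peaks are shown, namely those of rank 1, 3, 4, 5, 6 and 8 by pooled signal. Their composition differs widely. The peaks of rank 2 and 7, with pooled signals of 362.3 and 174.1, are not shown, so the choice does not follow signal alone. Each run covers the summit and the 50 bp to either side, on the plus strand of dm6, read from the matching RefSeq assembly. Capitals mark GAGAG in the second, ACAGTG in the fourth and AGGTGG in the sixth. These words were searched on both strands, together with other motifs described further on.
lncRNA:Vinr peak, chrX:12751313-12751413: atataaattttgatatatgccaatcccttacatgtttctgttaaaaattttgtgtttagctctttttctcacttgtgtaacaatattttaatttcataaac
CG32486 intron peak, chr3L:3060720-3060820: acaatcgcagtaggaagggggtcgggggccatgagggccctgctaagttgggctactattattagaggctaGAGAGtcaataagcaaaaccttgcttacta
osa intron and lncRNA:CR46035 exon peak, chr3R:17704344-17704444: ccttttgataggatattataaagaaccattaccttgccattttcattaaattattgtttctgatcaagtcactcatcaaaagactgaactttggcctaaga
lncRNA:CR44619 exon peak, chrX:12752338-12752438: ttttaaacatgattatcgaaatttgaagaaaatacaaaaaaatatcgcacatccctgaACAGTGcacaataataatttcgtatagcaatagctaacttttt
lncRNA:CR31044 start peak, chr3R:29214436-29214536: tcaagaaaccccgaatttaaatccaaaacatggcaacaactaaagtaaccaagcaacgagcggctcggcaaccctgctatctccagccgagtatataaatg
CG13970 to CG10651 peak, chr2L:20121038-20121138: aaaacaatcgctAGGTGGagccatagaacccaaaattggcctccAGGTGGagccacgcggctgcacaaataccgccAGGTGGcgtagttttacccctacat
The first of these windows had a GC content of 23.8% and the sixth one of 53.5%. AGGTGG stood in the sixth window 3 times, and was singled out after the sequence was seen. The word occurred in 3.94% of all distal summit windows and in 3.68% of 61530 windows of the same length taken every 1000 bp through distal sequence, so it was no more frequent at distal summits than elsewhere within the counting error (Wilson interval 2.15 to 7.09%). In the fourth window the letters TATCG, which are CGATA on the other strand, also occur, outside the capitals.

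The 6 strongest distal peaks stood apart from the rest, with pooled signals from 300.6 to 407.5 against at most 174.1 in the other 248. The first, in an exon of the long non-coding RNA gene lncRNA:Vinr on X (12751198 to 12751598), had a pooled signal of 407.5, with 224.5 in replicate 1 and 215.9 in replicate 2. Its window was 57.4% soft-masked, that is, marked as repeated or low-complexity sequence. About 1 kb away, in an exon of lncRNA:CR44619 (X, 12752167 to 12752500), a second peak had 320.7, with 145.6 and 188.1. The nearest protein-coding start to both is that of CG4004, at 5046 and 6071 bp, so the strongest distal peak lies just inside the limit that defines the class. Other peaks near the limit show how narrow the step is. Inside it, ush at 5016 bp had 52.9 and Lrch at 5061 bp had 126.3. Outside it, tara at 4957 bp had 66.2, cno at 4928 bp had 82.1 and Meltrin at 4890 bp had 82.8.

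Next in order was an intergenic peak on 2R (13035206 to 13035501), between Su(z)2 and CG13323, with a pooled signal of 362.3 and 178.8 and 178.1 in replicates 1 and 2. A peak in an intron of CG32486 (3L, 3060632 to 3060933) had 336.9, with 166.0 and 182.0. Inside osa, which encodes a subunit of the Brahma chromatin remodelling complex, and in an exon of lncRNA:CR46035 (3R, 17704264 to 17704566), the pooled signal was 336.8, with 171.4 and 182.7. In these 3 the replicates were nearly equal. The last of the 6 (3R, 29214304 to 29214590) had 300.6, with 123.1 and 172.9. Its summit stood 76 bp from the annotated start of lncRNA:CR31044, 1099 bp from mir-279 and 2698 bp from mir-996, a pair of microRNA genes known for their role in sensory neuron identity. All 6 peaks were matched in both replicates, against 123 of the other 248. A match means that one of the 1664 strongest regions of each replicate had its summit at most 200 bp away. Since the pooled signal combines the same replicates, a match of its strongest peaks was largely fixed by the ranking. Of the 6, 4 lay in an exon of a non-coding RNA gene or within 500 bp of the start of one, as did 28 of all 254 distal peaks (11.02%). This combined count was chosen after the peaks were seen, and its share over all 1664 peaks was not computed. The peaks at lncRNA:Vinr and lncRNA:CR44619 are neighbours, so whether strong distal peaks favour such genes was not tested.

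The next 9 peaks had signals from 144.3 to 174.1. Hr3, a nuclear receptor of the ecdysone cascade, held an intronic peak of 174.1 (2R, 10219950 to 10220206), with 108.1 in replicate 1 and 68.0 in replicate 2. A peak in an intron shared by Mi-2, the remodelling ATPase of the NuRD complex, and Su(Tpl), an elongation factor of the ELL family, had 164.0 (71.5 and 88.2). Hr4, another nuclear receptor of the ecdysone cascade, followed with 154.2 (77.7 and 72.3). Replicate 1 was higher at Hr3 and Hr4 and replicate 2 at Mi-2. Intergenic peaks stood between CG13970 and CG10651 (167.8), nearest to Sf3b3, a splicing factor gene (153.8), to the sulfatase gene Ids (149.9), to the sugar transporter gene Glut3 (148.8) and upstream of chinmo (144.3). A peak in an intron of CG6959 had 145.1. The 15 strongest distal peaks were all matched in both replicates, which the ranking by pooled signal largely fixed beforehand. By place, 7 of them were intergenic, 5 lay in introns of protein-coding genes and 3 in exons.

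**Figure D1:**
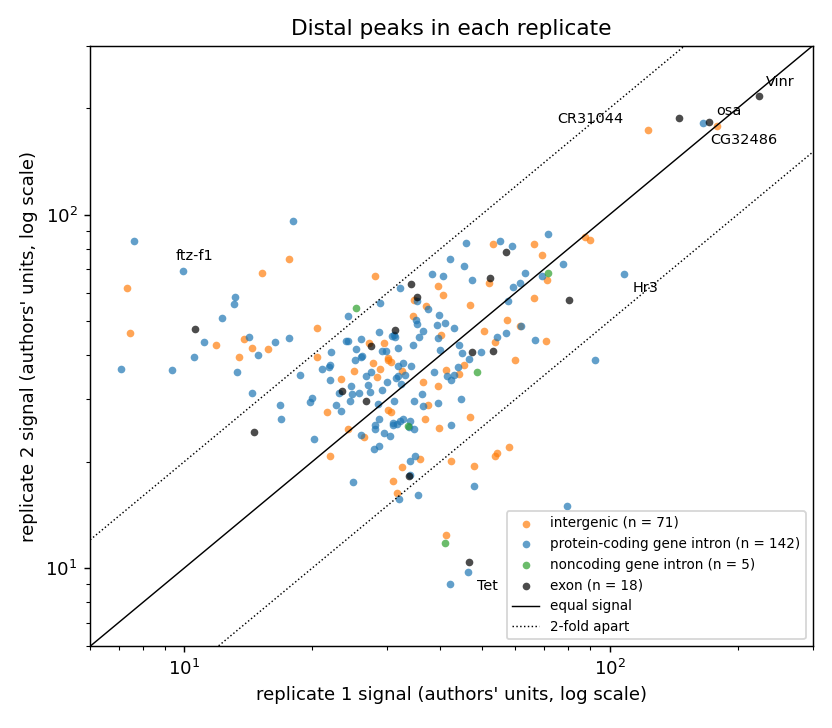
Signal of the 236 distal peaks that had a region within 200 bp in both replicates, replicate 1 on the horizontal and replicate 2 on the vertical axis (authors' units, both axes on a log scale), coloured by where the summit lies. The 6 strongest peaks form a separate group close to the line of equal signal, and 45 peaks lie beyond the dotted lines that mark a 2-fold gap.

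Among the reproducible peaks, all of which have a pooled signal of at least 51.8, distal ones were only slightly weaker than the others. Their pooled signals ran from 51.9 to 407.5 with a median of 70.6 (95% interval of the median 66.9 to 73.2). The median was 74.4 (70.8 to 77.6) for proximal and 77.8 (74.7 to 79.5) for promoter peaks, so the distal interval overlaps the proximal one and lies below that of promoters. Above 51.8, signal showed no steady relation to distance within the distal class, and weaker regions were not compared in this way. Medians were 70.8 for the 133 peaks at 5 to 10 kb, 72.0 for the 85 at 10 to 20 kb, 66.5 for the 23 at 20 to 30 kb and 71.3 for the 13 farther away. The 6 peaks above 300 all lay within 14 kb of a start.

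**Figure D2:**
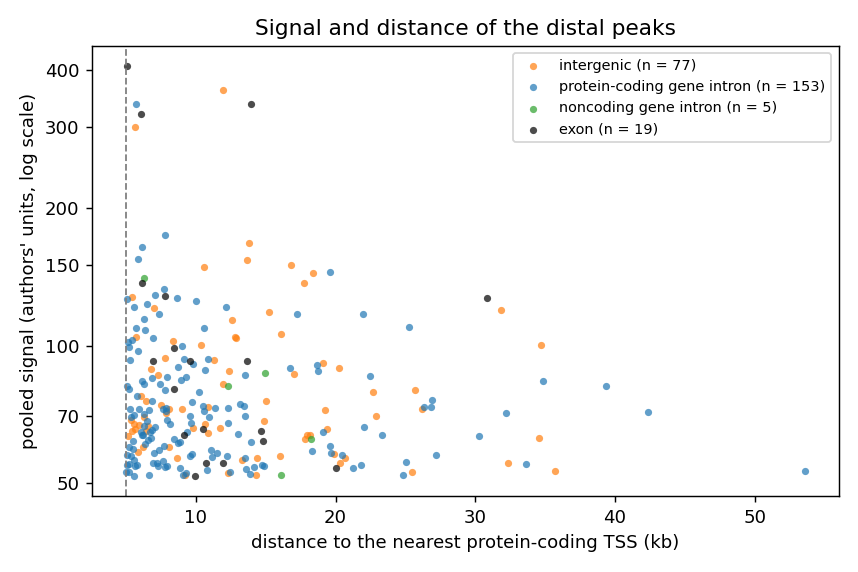
Pooled signal (authors' units, log scale) of the 254 distal peaks against the distance to the nearest protein-coding TSS in kb, coloured by where the summit lies; the dashed line is the 5 kb limit. Most peaks lie between 5 and 20 kb, and those beyond 30 kb have signals like the rest.

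The median distal peak stood 9644.5 bp from a start. The farthest was in an intron of hth, which encodes a homeodomain cofactor of Hox proteins, 53565 bp from its nearest start. Its signal was weak, at 53.3, with 16.8 in replicate 1 and 26.3 in replicate 2. Within mamo, a zinc-finger gene, a peak at 42369 bp had 71.5 (41.4 and 35.0). In ed, which encodes a cell adhesion protein, a peak 39336 bp from the start of Sr-CIII had 81.7 (35.7 and 44.9). An intergenic peak 35730 bp from CG31797 had 53.3 (41.2 and 12.4). In Snoo, the fly member of the Ski and Sno family, a peak 34871 bp from the start of Spn28Db had 83.7 (49.9 and 40.9). Of these 5, those in mamo, ed and Snoo were matched in both replicates and those at hth and CG31797 were not. The small chromosome 4 carried 2 distal peaks, which had similar signals. One, in the 3′ untranslated region of Cals, a synaptic adhesion gene, had 92.5 (53.2 and 41.0). The other, 19101 bp from lgs, a cofactor gene of Wingless signalling, had 91.7 (37.0 and 55.1).

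Distal sequence made up 61.5 Mb, or 46.0% of the 6 arms, and held 4.13 peaks per Mb. Proximal sequence held 9.28 and promoter sequence 57.6 per Mb. Density differed between arms. On 2L 63 distal peaks gave 6.19 per Mb, on X 47 gave 4.48, on 3L 56 gave 4.08 and on 3R 57 gave 3.78. On 2R 29 gave 2.55 per Mb, and distal peaks made up 9.45% of the peaks of that arm (Wilson interval 6.66 to 13.2%) against 18.3% on 2L (14.6 to 22.7%). The last 2 intervals, which are of shares and not of density, do not overlap. These arms were picked as the lowest and highest of the large arms, and the other large arms had 14.8 to 17.8%. Neighbouring peaks are not independent, which these intervals leave out.

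The distal share grew as weaker regions were taken in. In the authors' pooled list of 21376 regions, it was 15.3% among the strongest 1664, which are the reproducible peaks, 17.7% (15.9 to 19.6%) among the next 1664 and 23.2% (21.2 to 25.3%) in the group after that. From rank 8321 on it lay between 29.8 and 34.1% in each group. Within the reproducible list 4 groups of 416 by signal, from strongest to weakest, had 11.3, 13.5, 19.7 and 16.6%. Each replicate showed the same rise from a like start. The strongest 1664 regions of replicate 1 held 241 distal ones (14.5%), those of replicate 2 254 (15.3%). Lower down the lists parted, with 32.6% distal in ranks 3329 to 4992 of replicate 1 against 18.9% in those of replicate 2. All groups of 1408 regions or more remained under the share that distal sequence has of the arms, while the last 44 regions of replicate 1 gave 56.8% (42.2 to 70.3%).

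**Figure D3:**
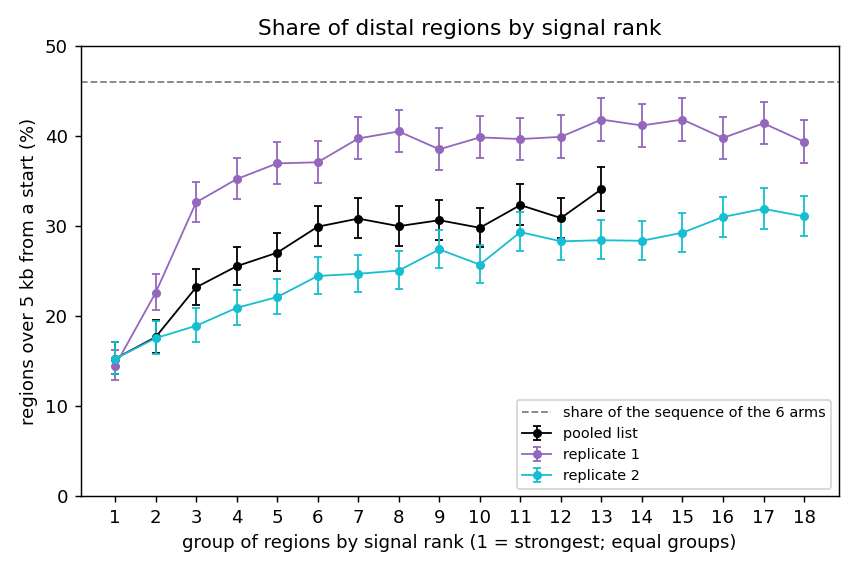
Share of regions over 5 kb from a protein-coding TSS (%, 95% Wilson intervals) in successive groups of 1664 regions by signal rank, for the pooled list and each replicate; the last pooled group holds 1408, and final groups with few regions are not drawn. The 3 lists start between 14.5 and 15.3%, rise, and stay below the dashed line at 46.0%, the share of distal sequence.

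How often distal peaks were found in the replicates differed from promoter peaks in replicate 1. Summits of 129 distal peaks (50.8%, Wilson interval 44.7 to 56.9%) were matched in both replicates in this sense, beside 53.5% of all 1664 peaks. The share was 56.9% for proximal and 52.3% for promoter peaks, and the intervals of the differences from distal peaks, -13.5 to 1.30 and -8.47 to 5.39 percentage points, include 0. Taken singly, replicate 1 had a match for 74.4% of distal and 82.1% of promoter peaks, a difference of -7.70 points (Newcombe interval -13.9 to -2.05). Replicate 2 had one for 70.9% and 66.7%, a difference of 4.16 points (-2.44 to 10.3). Because the reproducible list consists of the strongest regions of the pooled reads, part of this match was fixed by the list itself. Among all listed regions, 15 distal peaks had no summit of replicate 1 within 200 bp, or 5.91%, against 3.06% of all and 2.04% of promoter peaks. The difference from promoters was 3.87 points (1.30 to 7.55). For replicate 2 there were 3, or 1.18%, against 1.44% of all peaks.

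Which replicate was higher did differ by class. At the 236 distal peaks present in both, the median log2 ratio of replicate 2 to replicate 1 was 0.21 (interval of the median 0.09 to 0.32), with an SD of 0.90. At proximal peaks it was 0.17 and at promoters -0.12. Replicate 2 had the higher signal at 59.7% of distal and 44.7% of promoter peaks, a difference of 15.02 percentage points (Newcombe interval 7.82 to 21.9). The difference from proximal peaks, at 61.6%, was -1.85 points (-9.46 to 5.59), an interval that includes 0. The 2 lists were called separately and their signals were not scaled to each other here. At 191 distal peaks the replicates were within 2-fold, and at 45 they were not.

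The widest gaps occurred in both directions. In tara, a regulator of transcription and the cell cycle, 1 intronic peak (3R, 16236954 to 16237092) had 79.2 in replicate 1 and 14.96 in replicate 2. Tet, the fly gene of the TET family of dioxygenases, had 46.5 and 9.76, and CG8312 42.2 and 9.01. These 3 were high in replicate 1. High in replicate 2 were peaks at CG6191 (7.62 and 84.3), at CG42808 (7.32 and 62.1) and in an intron of ftz-f1, a nuclear receptor gene of the ecdysone cascade (9.90 and 69.1). The peak at CG6191 overlapped another whose summit lay at 13584350 instead of 13584622. That neighbour had 27.8 in replicate 1 and no summit of replicate 2 within 200 bp. In all, 18 distal peaks overlapped another distal peak, and merging these left 245.

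Most distal peaks lay in introns. Introns of any gene held 158 of the 254 summits (62.2%, Wilson interval 56.1 to 67.9%), while introns make up 50.4% of distal sequence. The density there was 5.10 peaks per Mb. Between genes there were 77 (30.3%, 24.99 to 36.2%, against 39.0% of distal sequence), or 3.21 per Mb. Exons held 19. Of these, 17 were exons of non-coding genes, 1 was coding sequence, in InR, the insulin receptor gene, and 1 a 3′ untranslated region, in Cals. The share in introns was lower, at 52.9%, for the 121 peaks more than 10 kb from a start. The nearest start was not always that of the host: of 157 peaks inside a protein-coding gene, 116 had the nearest start in that gene. Distal summits were upstream of the nearest start in 33.5% of cases (27.9 to 39.5%), against 46.5% of proximal and 83.5% of promoter summits. Of the 116 distal summits whose nearest start is in the host gene, 16 were upstream of that start and inside the gene.

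The choice of peaks had not used starts of non-coding RNA genes, and the share of distal peaks near one was close to the share over all peaks. Within 500 bp of such a start there were 18 distal peaks (7.09%, Wilson interval 4.53 to 10.9%), against 5.83% of all peaks, and within 5 kb 28.0% against 27.8%. An annotated start of any kind lay within 5 kb of 93. Beside the peak at lncRNA:CR31044, the strongest of the 18 lay near lncRNA:CR44917 (127.1, with 57.0 in replicate 1 and 78.4 in replicate 2), lncRNA:CR44867 (121.2, with 61.7 and 64.2) and lncRNA:CR44676 (102.2, with 57.3 and 50.3). The last of these stood 4351 bp from mir-9a. The median signal of the 18 was 69.1 (65.1 to 98.9) and that of the other 236 was 71.1 (66.8 to 73.2), so the intervals overlap widely. Of the 18, 8 were matched in both replicates. In all, 5 microRNA genes lay within 5 kb of 4 distal summits, a set looked up after the values were seen: mir-279, mir-996, mir-9a, the bantam gene mir-ban and mir-317, the last at 3423 bp from a peak of 81.8. The share of all reproducible peaks near a microRNA gene was not computed, so whether distal peaks favour such genes was not tested.

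Some distal peaks came in runs, but most stood singly. With gaps of up to 10 kb joined, the 254 peaks formed 195 loci, of which 165 were single peaks. A further 26 peaks stood in pairs and 63 in 17 runs of at least 3. Another distal summit lay within 10 kb for 89 peaks (35.0%, Wilson interval 29.4 to 41.1%). Of the 63 peaks in runs, 12 overlapped another, and with overlapping peaks merged there were 13 runs of at least 3. The longest run by count held 9 peaks over 25.03 kb on 3L (summits 615702 to 640736). Within it 5 summits lay in exons of lncRNA:CR43334, and the strongest, at 640736, was 1472 bp from bantam, a growth-promoting microRNA gene. That peak had 128.0, with 52.3 in replicate 1 and 66.0 in replicate 2. The rest had 54.0 to 92.8. Only 3 of the 9 were matched in both replicates, and replicate 1 was far lower at 628284 (17.6 against 74.6) and far higher at 633719 (46.6 against 10.4).

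Upstream of chinmo, a BTB zinc-finger gene that sets temporal identity in neurons, 6 peaks spanned 18.5 kb on 2L (1624891 to 1643408). The strongest, 18402 bp from the start of chinmo, had 144.3, with 53.1 in replicate 1 and 82.5 in replicate 2. The weakest, nearest to RFeSP, had 55.4 (33.7 and 18.1). Of the 6, 4 were matched in both replicates. Introns of sbb, which encodes a nuclear corepressor, held 5 peaks over 25.1 kb on 2R, from 54.4 to 88.0, of which 1 was matched in both. Downstream of noc, a zinc-finger gene of eye and appendage development, 4 peaks spanned 12.3 kb on 2L, from 52.2 to 93.1, with 3 matched. At all 3 of these noc peaks with a region in both, replicate 2 was higher. The lncRNA:Vinr run on X held the first and the fifth of all distal peaks and another with 136.7 (80.1 and 57.2), all matched. Over all runs of 3 or more, 27 of 63 peaks were matched in both (42.9%, 31.4 to 55.1%), against 102 of 191 others (53.4%, 46.3 to 60.3%), and these intervals overlap.

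**Figure D4:**
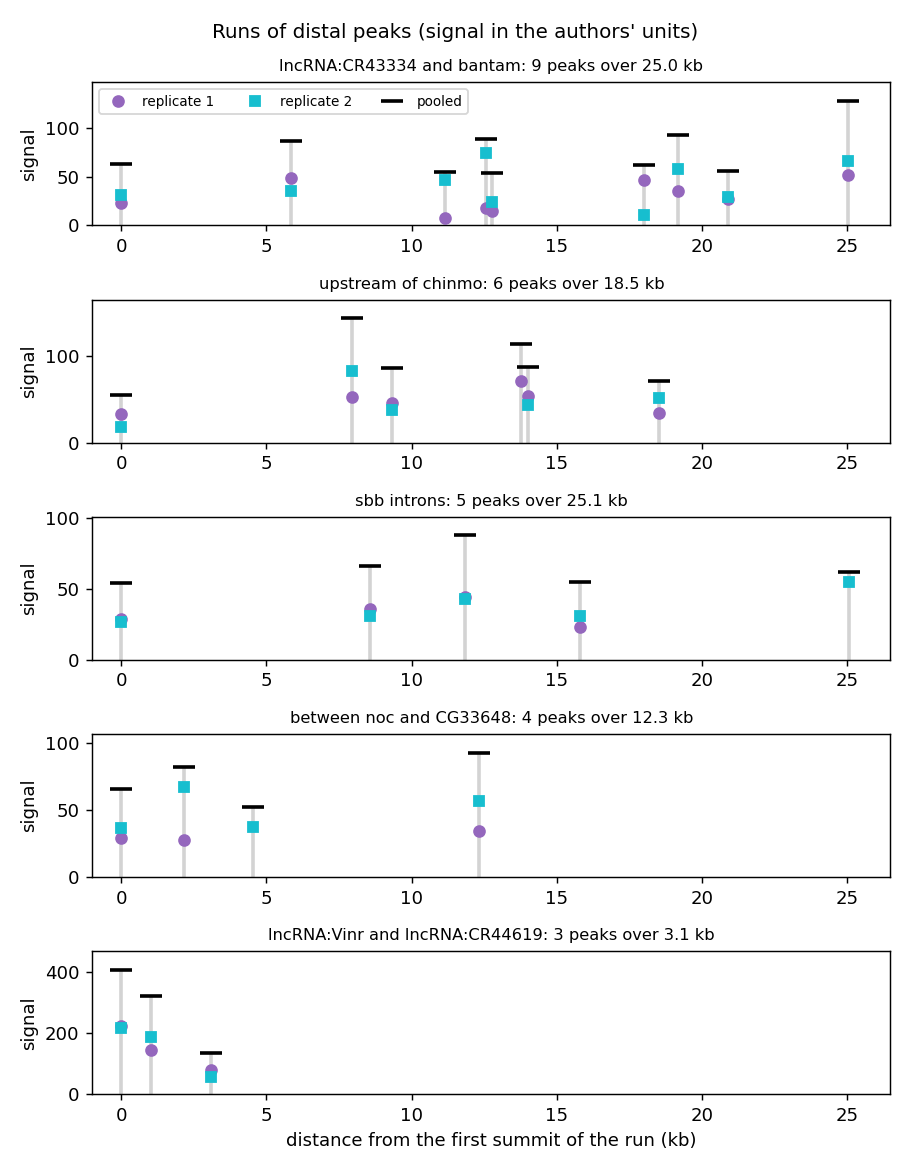
Signal (authors' units) of the peaks in the 4 runs of distal peaks that hold most members and in the run at lncRNA:Vinr, against the distance in kb from the first summit of each run; black bars are the pooled signal, circles replicate 1 and squares replicate 2, and a missing symbol means that no summit of that replicate lay within 200 bp. In the run at bantam the replicates part at several peaks, whereas in the run at lncRNA:Vinr the replicates have the same strongest regions.

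The remaining runs had 3 peaks each. In Hr4 the signals were 154.2, 125.4 and 57.1, in Raf, which encodes a kinase below receptor tyrosine kinases, 99.2, 75.6 and 127.3, and in gpp, the histone methyltransferase of the Dot1 family, 57.3, 117.0 and 60.4. In Raf all 3 were matched in both replicates, and in Hr4 and gpp 2. The run in ab itself (2L, 11221179 to 11229651) had 64.7, 102.8 and 53.0, and the peaks with the last 2 of these values overlap. There the signal rested on replicate 2, which had 55.7, 92.3 and 49.8, whereas replicate 1 had 13.1 at the first and no summit within 200 bp of the other 2. None of the 3 was matched in both. Other runs without a peak matched in both were those in tara, in Fas3, between plh and corto, and at CG6191, which holds 2 of its 3 peaks. Runs in rdx and between hng3 and CG13898 had 2 matched peaks each, and those in crp and between NijA and CG43245 1 each. With overlapping peaks merged, the runs in ab, at CG6191, between plh and corto and between NijA and CG43245 held fewer than 3 peaks.

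Bodies of 125 protein-coding genes held a distal peak, and 25 of these held 2 or more. Only a gene long enough to contain sequence over 5 kb from every start can hold one. There were 2084 such genes, of which 6.00% held a distal peak. Hr4 and sbb held 5 each, tara 4, and Raf, Smr, gpp, ab, rdx, crp and Fas3 held 3 each, 35 peaks in all. Of the 3 in ab, 2 overlap each other. Smr encodes a corepressor of nuclear receptors, rdx a BTB adaptor of a ubiquitin ligase, crp a bHLH transcription factor and Fas3 a cell adhesion protein. Per 10 kb of distal sequence the number was 2.17 in tara, 1.92 in crp and 1.05 in Hr4. In kirre, a much longer gene of muscle founder cells, 2 peaks came to 0.084 per 10 kb. In Smr the strongest had a pooled signal of 123.3 and only a replicate 2 summit, with 41.7. It overlapped a second peak, whose summit lay at 12735770 instead of 12735549, with 92.6 in replicate 1 and 38.8 in replicate 2. In tara the strongest had 117.4, with 18.03 in replicate 1 and 95.7 in replicate 2.

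Genes of signalling pathways were counted by lists. Of 13945 protein-coding genes 1.63% held a distal peak or were the nearest to one. Of the 2084 whose bodies hold distal sequence, 6.00% held one, which is the background for the list members with such sequence. Long genes have more distal sequence in which to hold a peak, and the lists were not matched on length. In the Dpp list, the fly BMP pathway, it was 5 of 20, or 5 of the 11 with distal sequence. These were the ligand dpp, its receptor tkv, the nuclear factor shn, the inhibitory Smad Dad and the extracellular modulator cv-2. The peaks in tkv, Dad and cv-2 were nearest to the starts of other genes, namely Cyp4ac1, Ns1 and CG17974. Signals ran from 52.0 in shn to 82.3 in Dad, which alone of the 5 was above the distal median of 70.6. At dpp the signal was 60.0 (29.5 in replicate 1 and 24.0 in replicate 2), and at tkv it was 54.3 (19.7 and 29.4). In the list of Hippo, JAK-STAT and polarity genes 7 of 34 held one: the Hippo kinase wts and its upstream regulators ex and kibra, the polarity gene scrib, the receptor fz, and Socs36E and Ptp61F, both inhibitors of JAK-STAT signalling. They ranged from 58.0 in kibra to 109.6 in fz, and 19 of the 34 had distal sequence. The peaks in ex, kibra, fz and Ptp61F were nearest to the starts of other genes, namely crq, Meltrin, CG13482 and SA2.

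The ecdysone list had 5 of 31, all holding peaks in their bodies, with 19 of the 31 long enough. Beside Hr3 and Hr4, the receptor gene EcR had 97.1 (35.3 and 57.1), the transporter gene E23 had 83.8 (35.1 and 50.1), and ftz-f1 had 2 peaks, the stronger at 70.3. Of 27 Ras-MAPK genes 3 held a peak, namely Raf, the ETS factor gene pnt (121.6, with 59.2 and 62.4) and S, which acts in export of the EGF receptor ligand (57.4). Of 51 axon guidance and adhesion genes 5 did, namely Fas3, NetA, dlp, kirre and side, with at most 82.4. Of 12 Hox genes and cofactors 2 did, Antp (58.9) and hth. The Wingless list had fz, the feedback inhibitor nkd (57.6) and lgs among 21, and the chromatin list osa and the Polycomb gene Psc (102.0, with 43.0 and 47.6) among 27. Genes with distal sequence numbered 14 in the Ras-MAPK, 47 in the axon guidance, 10 in the Hox, 12 in the Wingless and 13 in the chromatin list. The peaks in E23, dlp, NetA and fz were nearest to the starts of other genes, as was a second, weaker peak in osa.

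In the remaining lists the members were few. The Notch list had N itself among 21 (109.4, with 40.6 and 66.9), the muscle and tendon list kirre and the integrin gene mew (109.3, with 57.6 and 56.8) among 33, and the BTB list ab and chinmo among 19. Of 27 segmentation genes nkd held one and hry was nearest to one, and of 27 neural fate genes Dr alone was nearest to one, 10865 bp from its start (73.4). Genes with distal sequence numbered 8 in the Notch, 25 in the muscle and tendon, 14 in the BTB, 9 in the segmentation and 11 in the neural fate list. The peak in N was nearest to the start of another gene, CG18508. None of 92 cytosolic ribosomal protein genes held or was nearest to a distal peak, and none of them is long enough to hold one. A list near the background, or one whose members are long, says nothing particular of its pathway.

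The bases at distal summits were richer in A and T than their surroundings. The median GC content of the summit windows was 36.6% (interval 35.6 to 38.6%). It was 45.5% (44.6 to 46.5%) in windows of the same length 300 bp to either side and 41.6% over distal sequence at large. Proximal summits had 35.6% (34.7 to 36.6%) and promoter summits 38.6% (37.6 to 38.6%). The fall at the summit was thus common to all 3 classes. The 5 six-letter words with the largest excess over the flanks were all made of A and T. ATTTTA stood in 23.6% of distal summit windows, 10.4% of the flanks and 16.3% of distal sequence at large. At distal summits the shares of the others were 29.9% for AAAATA, then 24.4% for AAATAT, then 17.7% for AATATA and 24.0% for TTAAAA. In the flanks these words stood, in the same order, at 17.3, 12.4, 6.50 and 13.6%. Other classes had like shares, with 16.3 to 27.5% for the 5 words at proximal and 15.3 to 28.8% at promoter summits.

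The word ACAGTG, which reads CACTGT on the other strand, was singled out after the words had been ranked by their excess at distal summits over the flanks. A gap between summits and flanks was thus part of the choice, which the intervals below leave out. The word ranked 10 and was the highest on the ranking that holds both G and C. It occurred in 30 of 254 distal summit windows (11.8%, Wilson interval 8.40 to 16.4%), in 2.76% of the flanks (1.65 to 4.57%) and in 3.59% of distal sequence at large. The share was 13.1% at proximal and 12.2% at promoter summits, both within the interval of the distal share. The strongest regions of replicate 1 alone gave 12.03% at distal summits and those of replicate 2 alone 11.02%. Distal peaks with the word had a median signal of 72.9 (67.9 to 81.8) and those without it one of 69.9 (66.2 to 73.2). The peak at lncRNA:CR44619, whose sequence is printed above, is the strongest that holds it.

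**Figure D5:**
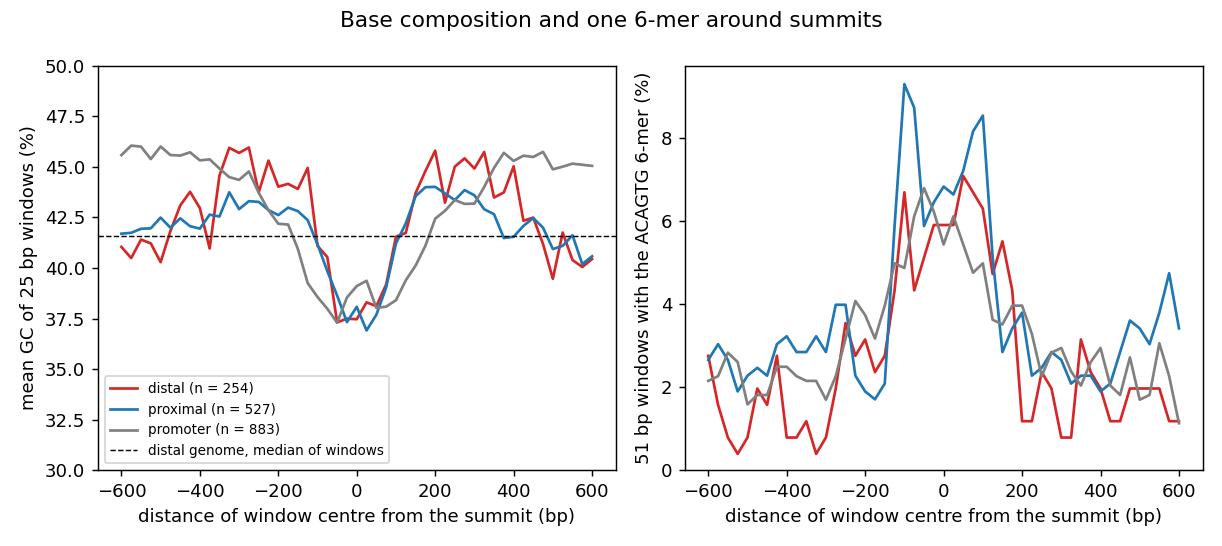
Left, mean GC content (%) of 25 bp windows, and right, share (%) of 51 bp windows that hold ACAGTG on either strand, against the distance of the window centre from the summit in bp, for distal, proximal and promoter peaks. In all 3 classes GC content falls and the share of windows with the word rises around the summit; the dashed line at 41.6% is the median of distal sequence.

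The words of known factors searched at distal summits were few or as frequent in sequence nearby, and the intervals of AGGTCA at summits and flanks overlap. TATCGATA, a core element of promoters bound by the factors DREF and BEAF-32, was in 0 of 254 distal summit windows, which allows up to 1.49%, and in 30 of 883 promoter ones (3.40%, 2.39 to 4.81%). Its shorter part CGATA was in 11.02% of distal summits, 10.7% of distal sequence at large and 21.1% of promoter summits. The difference from promoters was -10.04 percentage points (Newcombe interval -14.4 to -4.91). GAGAG, which the GAGA factor recognises, was in 16.1% of distal summits (12.1 to 21.2%), 10.6% of promoter and 10.4% of proximal summits. It was just as frequent, at 16.1%, in the flanks of the distal summits, and in 11.6% of distal sequence. The flanks of proximal and promoter summits had 19.1 and 15.2%, so those of distal summits did not stand out. The strongest regions of replicate 1 alone gave 11.2% at distal summits and those of replicate 2 alone 19.3%, the first below and the second above the 11.6% of distal sequence. CACACA was in 7.09% of distal summits and 16.7% of their flanks. The early embryonic motif CAGGTAG was in 1 of 254, the nuclear receptor word AGGTCA in 8, the E-boxes CAGCTG and CACGTG in 7 and 3, and the core promoter word GGTCACAC in 0. A match is only a run of letters and does not show that a factor was bound there.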

How the data were processed

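The deposited region lists on the dm6 build were used: 1 for each of the 2 replicates, 1 for the pooled reads and 1 of reproducible peaks, made by the irreproducible discovery rate method per the deposited description files. The signal of a region is the authors' own score against a control, on a scale not given in the sources used here, as are the aligner, the caller and their thresholds. Lists on the dm3 build were not used. The usual width was 384 bp in replicate 1, 600 bp in replicate 2 and 510 bp in the pooled list, and depth was unknown. Of the reproducible peaks 11.4% had another width, with 6.30% of distal and 12.6% of promoter peaks. The 6 strongest distal peaks were narrower than usual, at 287 to 401 bp.

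Starts, introns and exons came from Ensembl release 115 and bases from the RefSeq assembly with the same coordinates, on 6 arms. Positions are 1-based. A peak took the signal of the replicate region whose summit lay within 200 bp, without scaling between replicates, so neighbouring peaks can share one. No test was made, since there is 1 group. Intervals are Wilson (shares), Newcombe (differences) and exact order-statistic (medians), at 95%. Calculations used Python 3.11.15, pandas 2.3.3, numpy 2.4.6 and statsmodels 0.14.6, and distances, summit matching and motif search were tested on simulated data.

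Named were the 15 strongest and 5 farthest distal peaks, runs of at least 3, the 3 widest replicate gaps in each direction, those on chromosome 4 and at the limit, the 10 genes holding most, members of 14 lists and 5 six-letter words. The words ACAGTG and also AGGTGG, kirre, the peaks near non-coding starts and the microRNA genes were chosen after their values were seen. The peaks and lists were chosen with earlier results of these data known. Of the 8 strongest distal peaks, those of rank 2 and 7, both on 2R, were left out of the printed sequences.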

Additional observations from a re-analysis of the deposited data

How the results depend on the processing

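Over 75 combinations of a result with another setting, 55 kept the result within its interval, or a count within 1.5 times, and 20 did not. The sign of the median replicate difference held in its 4 alternatives. All of them used the same unscaled signals of the 2 replicates, so whether it depends on their scale was not tested. GAGAG and AGGTCA at distal summits, which stood above their shares of 11.6% and 2.57% in distal sequence, were below them with a single replicate: GAGAG at 11.2% without replicate 2, and AGGTCA at 1.57 and 1.66% without replicates 1 and 2. The number of distal peaks fell from 254 to 121 with a limit of 10000 bp, to 161 with TSSs of all gene types and to 103 among the 832 peaks above the median signal. As a share it was 22.3% over 3000 bp, 7.27% over 10000 bp, 9.68% with TSSs of all gene types, 10.998% with protein-coding and non-coding RNA starts (chosen after seeing the data) and 12.4% above the median signal. Left to a single replicate, the share was 14.5 to 15.3%. The share matched in both replicates was 92.9% in the whole replicate lists, since these hold weak regions too. Introns held 52.9% over 10000 bp, and 29.1% had another summit within 5 kb. The other results beyond their interval were shares of single motifs, 5 of them with the wider window, which holds more letters. Settings chosen after seeing the data were merged peaks, peaks outside runs, single replicates for introns, runs, GC content and motifs, and ACAGTG with wider windows. No paired analysis was possible because there is 1 group and no test. The dm3 lists were not run, as no annotation of that build was used here. Unknown depth limits what the absence of a region in a replicate can show.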
